A study of Homo sapiens with 5 samples.

Results

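Of the 2199 NRF2 peaks called in vehicle-treated BEAS-2B cells, 1197 (54.4%) stood alone on the genome and had no counterpart in the list from sulforaphane-treated cells. A vehicle peak entered this set when it lay on chromosomes 1 to 22 or X, when more than 10 kb separated it from every other vehicle peak, and when no peak of the sulforaphane (SFN) list overlapped it by 1 bp or more. The set was small in height and narrow. Its peaks held from 3 to 18 tags at the summit with a median of 5. Of them 854 were exactly as wide as the estimated DNA fragment, the smallest width in the vehicle list. It was spread over all 23 chromosomes examined, and its median distance to the nearest SFN peak was 1067165 bp, or 1729367 bp when the SFN list was limited to a −log10 q of 5 or more.

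NRF2 is the transcription factor that switches on antioxidant and detoxification genes. In unstressed cells KEAP1 binds it and directs its degradation, so little of it reaches the nucleus. Sulforaphane, an isothiocyanate formed from broccoli and related plants, modifies KEAP1, after which NRF2 accumulates and binds antioxidant response elements together with small MAF proteins. A vehicle sample therefore reports on the basal occupancy of NRF2 together with whatever background the precipitation recovers.

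BEAS-2B is an established, immortalised line of human bronchial epithelial cells. The vehicle group comprised 2 samples given 0.1% DMSO for 5 h, and the SFN group comprised 2 samples given 10 µM D,L-sulforaphane for the same time. Both were precipitated with a rabbit monoclonal antibody against NRF2, and 1 further DMSO sample was precipitated with rabbit IgG. Each treatment had a single peak list, so no value per sample exists here, and no spread between replicates can be set beside any value below. The vehicle list was built on 1459665 kept tags and the SFN list on 7448599, a ratio of 5.10, and both were called against 28125771 kept control tags. With 1 tag kept per position, 12.8% of 11377334 vehicle tags and 32.3% of 23090154 SFN tags remained. The difference in kept tags is therefore not one of sequencing depth alone. Sequence and gene annotation of hg19, the build of the lists, were not used here, so peaks are given by position alone.

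The selection went in steps. Of the 2199 vehicle peaks 2033 lay on chromosomes 1 to 22 and X, and 1277 of these had no other vehicle peak within 10 kb. Of these isolated peaks 1197 overlapped no SFN peak, or 93.7%, against 67.8% of all 2033 vehicle peaks and 24.1% of the 756 that had a neighbour. The mirrored set in the SFN list, isolated SFN peaks that overlapped no vehicle peak, held 815 of 885 isolated peaks, or 92.1%. The set was selected on the called positions in both lists, so these shares, and the heights, widths and control levels of the same calls, are given as a description without a test. The remaining 80 isolated vehicle peaks did overlap an SFN peak. At the edge of the rule, chr1:703708-703861 was just inside, with its nearest vehicle neighbour 10233 bp away and 4 tags at the summit. The peak chr9:66784151-66784306, with 8 tags, had a neighbour at 9282 bp and was just outside. The smallest overlap that kept an isolated peak out was 6 bp, at chr6:28321856-28322009 (4 tags), beside an SFN peak of 22 tags.

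The heights of the isolated, unshared peaks were concentrated in a few values. The summit pileup, which is the number of tags stacked at the highest point after each tag is extended to the fragment length, was 4 tags in 475 peaks (39.7%) and 5 tags in 447 (37.3%). A further 70 had 3 tags and 116 had 6. Peaks of at most 5 tags made up 992 of 1197 (82.9%, exact 95% interval 80.6 to 85.0), and 32 reached 10 tags or more (2.67%, 1.84 to 3.75). The fold over local control, the authors' value for each peak as called, is the pileup plus 1 over the control plus 1. It had a median of 4.97 and ran from 3.46 to 14.5. The −log10 q, the caller's adjusted significance, ranged from 1.49 to 21.7 with a median of 3.50, and 289 peaks had a value of 5 or more.

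**Figure D1:**
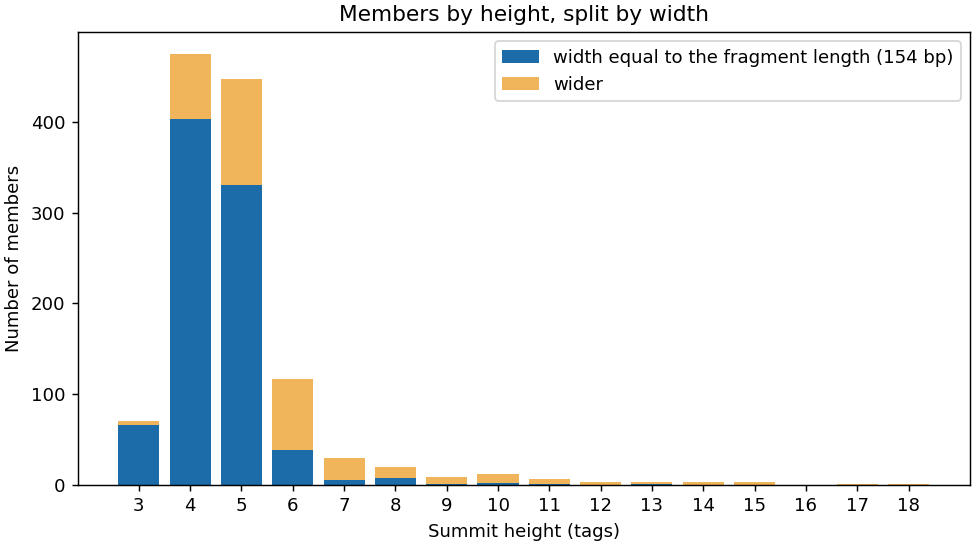
Number of isolated vehicle peaks absent from the SFN list (vertical axis) by summit height in tags (horizontal axis), with peaks exactly as wide as the fragment in blue and wider ones in orange. Most sit at 4 and 5 tags, 475 and 447 peaks, and most of those are of fragment width.

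Many of these peaks were called close to the smallest height that the list admits. At each peak's control level, the lowest whole number of tags that reaches the weakest p of the vehicle list was computed, with the Poisson tail that the caller uses. This height was 3 tags at the median control level of the set. The limit was nowhere under 3 tags, and no listed peak can stand below its own. All 70 peaks of 3 tags therefore stood exactly at it by construction, and peaks of 4 tags could exceed it by at most 1. Of the 475 peaks of 4 tags, 40 stood at the limit. In all, 631 of 1197 (52.7%) stood 0 or 1 tag above it, and the median excess was 1 tag. Among the 80 isolated vehicle peaks that overlapped an SFN peak the median excess was 6.5 tags, and 5 of them (6.25%) stood 0 or 1 tag above the limit. The 182 unshared vehicle peaks with a neighbour were closer to the set, with a median excess of 3 tags and 47 (25.8%) at 0 or 1. Over all 2033 vehicle peaks, which include the set, the median excess was 2 tags and the share 33.7%. A height of 4 tags has an exact Poisson 95% interval of 1.09 to 10.2 tags, which covers counting error and leaves out that the peak was picked for its height.

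Width followed the same pattern. The fragment length estimated for the vehicle library was 154 bp, and no peak of the vehicle list was narrower, while in the SFN list the narrowest peak had the fragment length of that library, 153 bp. Fragment width was thus the lower limit of both lists, and the headers do not say whether shorter calls are extended to it. Of the isolated, unshared vehicle peaks 854 (71.3%, exact interval 68.7 to 73.9) were 154 bp wide, and the other 343 had a median width of 190 bp. Widths over 1.5 fragment lengths were seen in 81 peaks (6.77%), and widths over 2 fragment lengths in 26 (2.17%). Among vehicle peaks at a −log10 q of 5 or more, selected by the same rule, the latter share was 5.86%. That limit was applied before the rule, which gave 307 peaks rather than the 289 of the set that reach it. It also selects taller peaks: 71.9% of the set's peaks of 10 tags or more reach it, against 22.8% of the lower ones. Fragment width went with low height. Of the 70 peaks of 3 tags 66 had it, as did 403 of the 475 peaks of 4 tags, 330 of the 447 of 5 tags, 38 of the 116 of 6 tags and 4 of the 32 peaks of 10 tags or more. The summit did not sit at a fixed place within the peaks of fragment width: it lay from 1 to 152 bp after the start, with a median of 69 bp and a middle 50% between 45.25 and 94 bp. In comparison, 12 of the 80 isolated peaks shared with the SFN list (15.0%) and 231 of the 815 isolated SFN peaks absent from the vehicle list (28.3%) had the fragment width of their own library. So had 70 of the 182 unshared vehicle peaks with a neighbour (38.5%) and 956 of all 2033 vehicle peaks (47.0%). These classes also differ in height: 3 of the 815 SFN peaks had at most 5 tags, against 992 of the 1197 peaks of the set.

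The 5 widest peaks held both tall and low summits. The widest was chr5:125499277-125500211, 935 bp or 6.07 fragment lengths, with 11 tags at a fold of 9.56. Next in width were chr3:195551127-195551776 (650 bp, 18 tags) and chr1:53749381-53749944 (564 bp, 14 tags). The remaining members were low: chr13:78278625-78279178 was 554 bp wide with 4 tags, and chr5:93012875-93013371 was 497 bp wide with 6 tags. Over the 26 peaks wider than 2 fragment lengths, heights ran from 4 to 18 tags with a median of 7, and 11 of the 26 had a control level under 3.

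Against the other vehicle peaks the set stood at the low end of height and of control level. The 80 isolated peaks that overlapped an SFN peak had a median of 13 tags, with 95% order-statistic limits of 11 and 16, and the 182 vehicle peaks that had a neighbour but no SFN overlap had a median of 8 (6 to 10). The 574 with both a neighbour and an SFN overlap had a median of 23 tags (22 to 24). Peaks of 10 tags or more were 2.67% of the isolated, unshared set, 65.0% of the isolated shared set, 42.9% of the unshared peaks with a neighbour and 97.9% of the shared peaks with a neighbour. The ranges overlapped, since the isolated shared peaks began at 4 tags and the isolated unshared ones ended at 18. The same calls chose these classes, so their differences are a description.

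**Figure D2:**
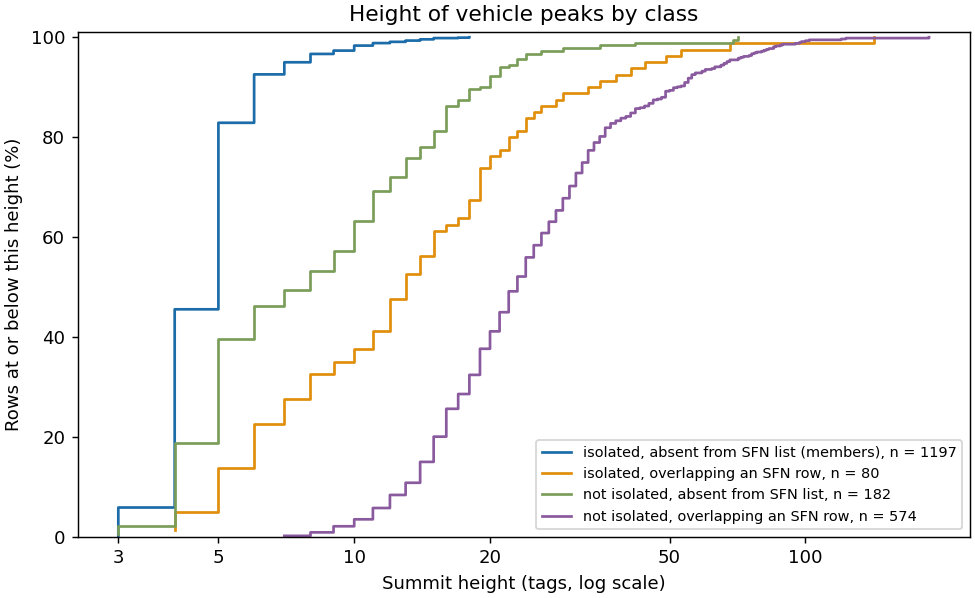
Cumulative share of vehicle peaks (vertical axis, percent) at or below each summit height (horizontal axis, tags, log scale), 1 line for each of 4 classes. The isolated peaks absent from the SFN list rise first, with 82.9% at or below 5 tags, against 13.8% of the isolated peaks that overlap an SFN peak.

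Most of these peaks lay where the control was near its genome average. The control level is the local control signal that the caller used, obtained from each peak's pileup and fold and divided by the 0.0833 tags expected per position at the vehicle depth. Its median was 1.25, and 1081 of 1197 peaks (90.3%, exact interval 88.5 to 91.9) were under 3, against 58.5% of all 2033 vehicle peaks. Of the classes compared here the mirrored isolated SFN peaks came closest to the set, with a median of 1.44. Their share under 3 was lower than that of the set, with 649 of 815 (79.6%, 76.7 to 82.3). Under 3 were also 83 of the 182 unshared vehicle peaks with a neighbour (45.6%), 25 of the 80 isolated shared peaks (31.3%, 21.3 to 42.6) and 0 of the 574 shared peaks with a neighbour. At the lowest value, where the caller puts the genome average in place of a lower local one, there were 378 peaks (31.6%). Heights of 3 to 5 tags were seen in 962 of the 1081 peaks under 3, while 24 reached 7 tags and 4 reached 10.

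Height moved with the control level. The median height was 4 tags at the lowest control level, 5 tags from 1.5 to 3, 6 tags from 3 to 10 and 11 tags in the 19 peaks at 10 or more. The smallest height that could be listed also rose over these classes, from 3 tags to a median of 8, so the caller's threshold moves with the control level as well. The median fold changed less, from 4.62 at the lowest control level to 5.41 at 10 or more. Of the 32 peaks of 10 tags or more, 28 had a control level of 3 or more. The part of the control level in the height of those peaks was not tested.

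**Figure D3:**
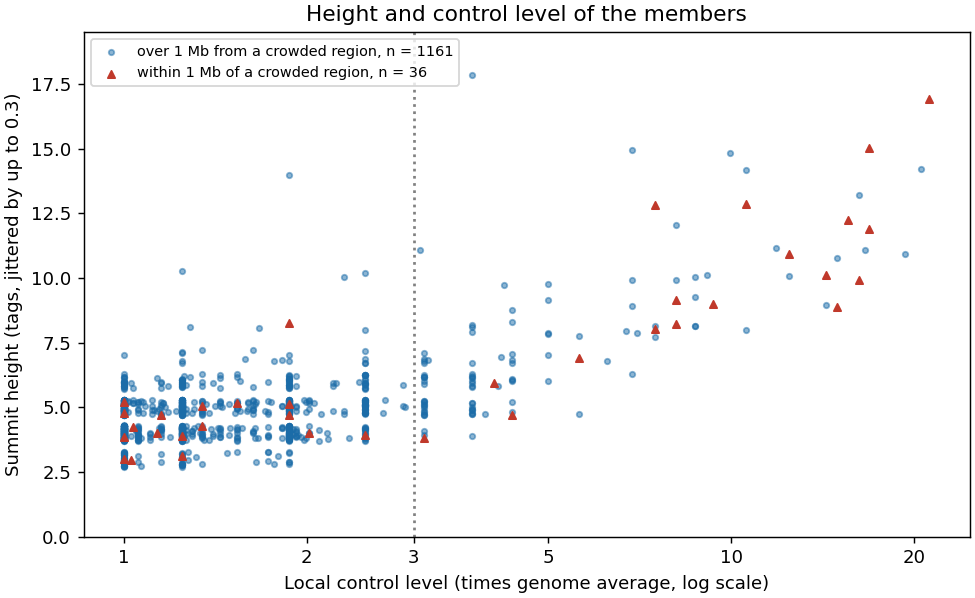
Summit height in tags (vertical axis, jittered) against the local control level as a multiple of the genome average (horizontal axis, log scale) for each of the 1197 peaks, with a dotted line at 3. Triangles mark the 36 peaks within 1 Mb of a crowded region, and the peaks of 10 tags or more lie mainly to the right of the line (28 of 32).

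The 15 tallest peaks lay on 7 chromosomes, and 14 of them had a control level of 3 or more. The tallest was chr3:195551127-195551776, with 18 tags, a fold of 14.5, a −log10 q of 21.7 and a control level of 3.74. Its nearest SFN peak was 514953 bp away. It was the highest of the set in fold as well as in height, which are not independent since the fold is computed from the height.

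The peaks ranked 2 and 5 in height, with ties ordered by fold, were a pair on chromosome 2 near a group of SFN peaks. The peak chr2:133028387-133028582 had 17 tags, a fold of 6.51 and a control level of 21.2, and chr2:133012984-133013288 had 15 tags, a fold of 6.66 and a control level of 16.8. The first lay 15506 bp and the second 103 bp from the same SFN peak, chr2:133012629-133012880, which had 62 tags and a control level of 25.7.

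Others were far from any SFN peak. The peak chr7:156931406-156931682 had 15 tags and a fold of 10.2 at a control level of 6.86, and its nearest SFN peak was 2196782 bp away. The peak chr1:165721604-165721765 (14 tags, fold 7.97, control level 10.6) had none within 2067521 bp, and the wide peak on chromosome 5 named above none within 2402148 bp. Of the 15 tallest 9 had an SFN peak within 50 kb, and 3 had one within 1 kb.

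The remaining tall peaks had control levels from 7.48 to 20.6, apart from chr1:53749381-53749944. They were chr20:26314106-26314378 (15 tags), chr5:46329809-46329969 (14 tags), chr7:61739564-61739733, chr1:120543838-120544031 and chr1:145277384-145277537 (13 tags each), and chr7:64954632-64954950, chr4:49333275-49333482 and chr4:49280814-49280985 (12 tags each). Their folds ran from 5.41 to 8.74, while chr1:53749381-53749944 had a fold of 13.0. The last of the 15 places, at 11 tags, was shared in height by 6 peaks and was given by fold.

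The peak chr1:53749381-53749944 was the 1 of the 15 tallest at a control level under 3. It had 14 tags at a control level of 1.87, where 3 tags would have been enough for a call, and a −log10 q of 19.3. Its nearest SFN peak, chr1:53791735-53791975, was 41790 bp away with 22 tags. The other 3 peaks of 10 tags or more at a control level under 3, chosen for mention after their values were seen, had 10 tags each. They were chr12:53969194-53969364 (fold 9.96), chr1:92305879-92306183 (fold 9.11) and 1 peak on chromosome 8 (fold 9.23).

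Crowded regions, in which 5 or more peaks of a list follow each other at most 10 kb apart, lay near several of the tall peaks. Within 1 Mb of such a region of either list were 36 of the 1197 peaks (3.01%, exact interval 2.12 to 4.14), 9 of the 32 peaks of 10 tags or more (28.1%, 13.7 to 46.7) and 27 of the 1165 lower ones (2.32%, 1.53 to 3.35). By control level, the share was 1.06% of peaks at the lowest level, 9.28% from 3 to 10 and 47.4% of the 19 peaks at 10 or more. For comparison, 20 of the 80 isolated shared peaks lay within 1 Mb of a crowded region. The limit of 1 Mb was chosen after the data were seen.

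The distance from a peak's edge to the nearest SFN peak had a median of 1067165 bp (95% limits 951871 and 1191284) and ran from 71 bp to 15880645 bp. With the SFN list limited to a −log10 q of 5 or more, which leaves fewer SFN peaks and a set of 1203, the median was 1729367 bp. The mirrored isolated SFN peaks absent from the vehicle list had a median distance of 595315 bp to the nearest vehicle peak. The lists measured to differ in number, with 2033 vehicle peaks (1277 isolated) against 1761 SFN peaks (885 isolated), so these medians are not directly comparable. Over 1 Mb lay 613 peaks, and from 50 kb to 1 Mb lay 516. Within 50 kb lay 68 (5.68%, exact interval 4.44 to 7.15), within 10 kb 17 and within 1 kb 6. Of all 2033 vehicle peaks 40.5% had an SFN peak within 50 kb, but the rule took every overlapping peak out of the set. With isolation set at a gap above 50 kb the share of the set was 3.63%. The 182 unshared vehicle peaks with a neighbour lay closer, with a median of 30342.5 bp, and 102 of them (56.0%) had an SFN peak within 50 kb.

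The few near misses were taller than the set as a whole. The 6 peaks within 1 kb of an SFN peak had a median height of 11.5 tags, and the control level was 3 or more at 5 of the 6. Closest was chr22:20326461-20326712, with 11 tags, which lay 71 bp from an SFN peak of 26 tags. The peak chr2:133012984-133013288, described above, was at 103 bp, and chr10:42661434-42661592 (11 tags) was at 152 bp from an SFN peak of 24 tags. Next were chr6:62284663-62284816, with 6 tags and the lowest control level of these (1.54), at 454 bp, and chr7:64954632-64954950 at 466 bp. Where the control level was 10 or more, 10 of 19 had an SFN peak within 50 kb, against 14 of 378 (3.70%) at the lowest control level.

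**Figure D4:**
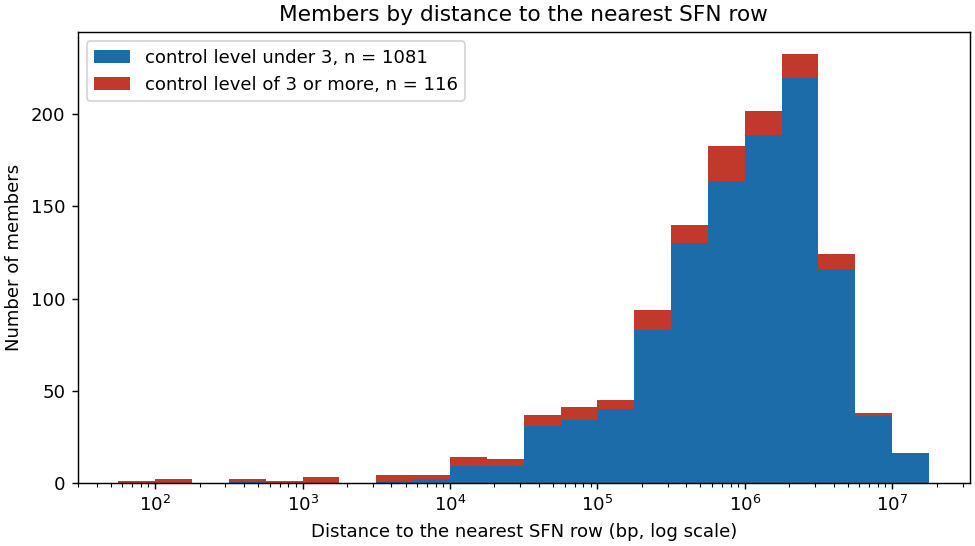
Number of isolated vehicle peaks absent from the SFN list (vertical axis) by distance to the nearest SFN peak in bp (horizontal axis, log scale), with peaks at a control level under 3 in blue and at 3 or more in red. The median is 1067165 bp, and 5 of the 6 peaks within 1 kb are at a control level of 3 or more.

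The distance was also taken from the SFN side. A peak of the isolated, unshared vehicle set lay within 50 kb of 142 of the 1761 SFN peaks (8.06%) and of 43 of the 724 with a control level under 3 (5.94%). Of the 50 tallest SFN peaks at a control level under 3, which had 22 tags or more, 1 had such a peak within 50 kb and 36 had one within 1 Mb, and 13 overlapped a vehicle peak of any kind. These shares were not tested against each other. The 1 was chr2:29353233-29353499, with 37 tags, and the vehicle peak chr2:29316431-29316634, with 5 tags, lay 36598 bp from it. The median distance from these 50 SFN peaks to the nearest peak of the set was 607662 bp. Within 50 kb of the 68 vehicle peaks named above were 64 different nearest SFN peaks, of which 50 were isolated among SFN peaks and 34 were at a low control level, under 3.

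Heights per 1000000 kept tags set both lists on 1 scale, on the assumption that both precipitations were equally efficient. The lowest peak of the set had 2.06 tags on this scale and the median peak 3.43, since 1 vehicle tag weighs 0.685. Of the 1761 SFN peaks on the same chromosomes 684 were lower than 2.06, and 925 were lower than 3.43. The isolated SFN peaks absent from the vehicle list had a median of 10 tags, or 1.34 when scaled. The lowest SFN peak had 5 tags, or 0.671 when scaled. No vehicle peak had fewer than 3 tags, or 2.06 when scaled, so the counts of lower SFN peaks follow in part from these unlike floors. The heights of both lists are those of called peaks, so the scale does not tell how many tags the SFN library had at the vehicle peaks.

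The peaks were spaced widely. The nearest other vehicle peak was 733996 bp away at the median and 9134157 bp at the most. Joined at distances up to 50 kb, the set formed 23 pairs and 2 groups of 3 peaks, at chr1:159543184-159594230 and chr10:776194-825635, and 1145 peaks remained single. Groups of this kind are limited by the rule, which removes every peak with a neighbour within 10 kb.

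The peaks were found on every chromosome examined. Relative to the span between the first and last position listed on a chromosome, there were 0.408 peaks of the set per Mb overall. Chromosome 19 had the highest density (0.644 per Mb, 38 peaks) and chromosome 21 the lowest (0.183 per Mb, 7 peaks), a ratio of 3.52. The other vehicle peaks ran from 0.0315 per Mb on chromosome 13 to 0.836 on chromosome 21. The rule puts every peak of a cluster among the other vehicle peaks, so the wider range of these is in part fixed by the selection. Chromosome 1 held the most peaks of the set (106), followed by chromosome 2 (92) and chromosome 3 (90).

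The share of vehicle peaks that belonged to the set ran from 17.9% on chromosome 21 (7 of 39) to 92.3% on chromosome 13 (36 of 39). It was low on chromosome 10 (52 of 161, 32.3%) and chromosome 4 (79 of 225, 35.1%). It was high on chromosome 14 (34 of 37, 91.9%) and chromosome 3 (90 of 100). The median height per chromosome was from 4 to 5 tags on every chromosome. Peaks of 10 tags or more were found on 16 of the 23 chromosomes, with 9 on chromosome 1 and at most 3 on any other. These counts were not tested, and repeats, mappable length and gene density were not used here.

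**Figure D5:**
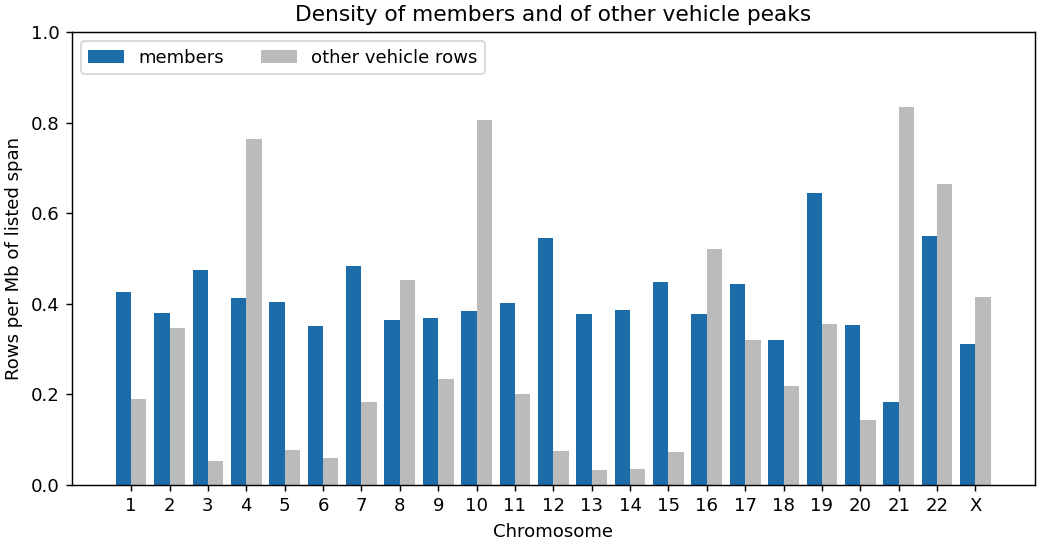
Peaks per Mb of listed span (vertical axis) on each chromosome (horizontal axis), with the isolated vehicle peaks absent from the SFN list in blue and all other vehicle peaks in grey. The blue bars run from 0.183 to 0.644 per Mb and the grey bars from 0.0315 to 0.836.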

How the data were processed

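The submitters' processing notes name CASAVA 1.4, BWA, MACS2 and the build hg19, and the file headers name MACS 2.1.0.20140616 as peak caller. Tag length was 36 bp, 1 tag was kept per position and the q cutoff was 0.05, per the file headers. In the vehicle library 12.8% of 11377334 tags were kept, and in the SFN library 32.3% of 23090154. Pooling of a treatment's samples before calling is not stated there, and the control's name carries both input and IgG.

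For each peak the authors deposited the summit pileup (a signal in tags), the fold against local control (a ratio) and −log10 p and q values, besides width and summit position. From these the control level was computed back as the pileup plus 1 over the fold, minus 1. With it the deposited −log10 p was obtained again within 0.001 for all 2199 vehicle and all 1925 SFN peaks.

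The selection was tested on simulated data. Shares have exact (Clopper-Pearson) 95% intervals and medians have order-statistic limits from the binomial distribution, which cover counting error alone. No test was made, because the rule uses the calls described. Named were the 15 tallest, the 5 widest and the 5 peaks nearest to an SFN peak, with those at the edges of the rule. The set, this rule and the limit of 3 were chosen with earlier results of these data known. Python 3.11.15, pandas 2.3.3 and scipy 1.17.1 were used.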

Additional observations from a re-analysis of the deposited data

How the results depend on the processing

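The 7 summary values of the set (number, median height, median width, share over 2 fragment lengths, median distance to the SFN list, share with an SFN peak within 50 kb, share at a control level under 3) were recomputed under 6 planned settings and 1 chosen after seeing the data, the set without peaks within 1 Mb of a crowded region. Of the 49 values 42 stayed within the limits of the reported value, or within 1.5 times for the number, among them all 7 of the added setting. Apart from a limit on the vehicle −log10 q, the settings gave 1129 to 1219 peaks against 1197, by construction largely the same ones. Most values therefore had little room to move, and the count of 42 says little about stability. With vehicle peaks at a −log10 q of 5 or more, which are fewer by construction, the set had 307 peaks, the median width was 155 bp, 5.86% were wider than 2 fragment lengths and 8.47% had an SFN peak within 50 kb. With SFN peaks at a −log10 q of 5 or more, the median distance to them was 1729367 bp and 4.07% had one within 50 kb, from fewer SFN peaks by construction. With a gap above 50 kb, 3.63% had an SFN peak within 50 kb; the cause was not tested. No paired analysis was possible because the lists carry no replicate numbers, and no replicate could be left out for the same reason. At 1459665 kept tags 992 of the 1197 peaks rest on 3 to 5 tags, which limits what can be said of any single one. The planned shares with a response element or near transcription starts, which need the sequence or annotation of hg19, were not run.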
